A study of Mus musculus with 4 samples.

Results

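XY gonads of mouse embryos were compared with XX gonads at 12 dpc (days post coitum), about when a testis and an ovary begin to look different. The members were all spots that carry 1 gene symbol and have a value on both arrays of this comparison, 10657 of 17664 spots, for 9949 genes. On these 2-colour arrays of spotted oligonucleotides, XY wild type (Wnt4 +/+) RNA was set against XX wild type (Wnt4 +/+) RNA, with XY in Cy5 on replicate 1 and in Cy3 on replicate 2. The other 2 arrays of the series set XX Wnt4-/- RNA against XX wild type RNA at the same age, also with dyes swapped. Gonads were freed of the neighbouring mesonephros, and RNA came from several pools, each of many embryos. Whether the dye-swapped arrays used separate extracts is not stated, so p-values measure only spread among arrays, which may be technical.

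Every value below is a log2 ratio of XY over XX wild type unless another comparison is named, so positive means more RNA in XY. This direction is likely and not settled, because the labels do not name the numerator. It rests on XX wild type being the common reference of the design and on Eif2s3y, a Y-linked gene, and Xist, the RNA of the inactive X. These 2 genes required replicate 1 to be turned, and so give no check of it. As deposited, XY replicate 1 and Wnt4 null replicate 1, which share a dye orientation, correlated at r = -0.62 over 12264 spots. Each gene name depends on swapping row and column inside a printed block, a rule found from the values.

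The gonad starts out alike in both sexes. In XY embryos Sry turns on Sox9 in supporting cells, which become Sertoli cells, enclose the germ cells in cords and send FGF9, prostaglandin D2 and desert hedgehog signals to their neighbours. In XX embryos RSPO1 and WNT4 act through beta-catenin in the supporting cells, and the germ cells respond to retinoic acid with Stra8 and enter meiosis.

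Across all members the 2 arrays agreed little, and for large differences they agreed well. The correlation of the arrays was Pearson r = 0.07 and Spearman rho = -0.10 over 10657 spots of the same 2 slides, as a description. Past 1.5-fold, 303 members had matching directions (160 higher and 143 lower in XY) and 207 had opposite ones. Past 2-fold the counts were 109 and 33, and past 3-fold they were 32 and 2. Medians of the 32 printed blocks ran from -0.28 to 0.25 on replicate 1 and from -0.25 to 0.20 on replicate 2. The number of arrays limits the precision. As a gauge of spotting error, 17 spots of Gapdh, a glycolysis gene, read 0.21 ± 0.09 on replicate 1 and -0.21 ± 0.07 on replicate 2 (SD over spots), which average to 0.00.

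**Figure D1:**
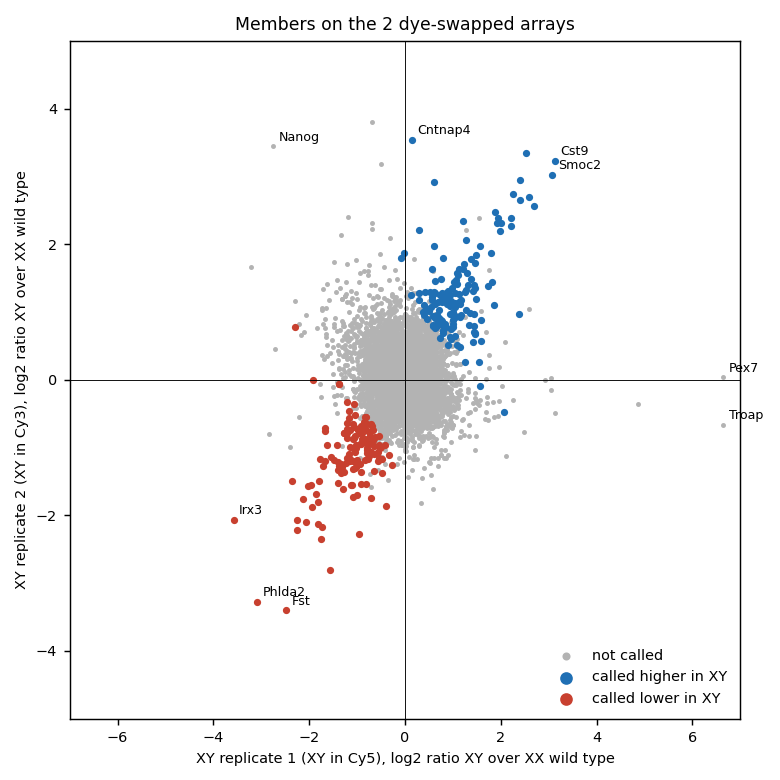
Log2 ratio of XY over XX wild type for each member on replicate 1 (horizontal axis, XY in Cy5) and replicate 2 (vertical axis, XY in Cy3). Blue points were called higher in XY and red points lower; grey points were not called; Cst9 and Smoc2 lie at the upper right, Phlda2, Fst and Irx3 at the lower left, and Nanog and Troap on opposite sides of 0 on the 2 arrays.

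A spot is said to have risen or fallen here only where it was called by limma, a linear model with moderated variances, with a spot-wise dye effect shared by all 4 arrays (Benjamini-Hochberg adjusted p under 0.05 over 12264 spots). Standard errors and p-values of this fit do not measure the gap between the 2 XY arrays. They measure how far that gap departed from the gap between the Wnt4 null arrays, moderated by the variances of all spots. The dye term fit called 330 spots, 2.69% of those tested, among them 292 members, 154 higher and 138 lower in XY. Per gene this is a background of 1.58% higher and 1.41% lower. All of these calls depend on the dye term: without it 0 spots were called (686 at an unadjusted p under 0.05). The XY arrays alone also gave 0 calls, 0% of 12516 spots (709 at an unadjusted p under 0.05). Without replicate 1 limma called 0 spots, and without replicate 2 it called 1, both fitted without the dye term. Of the called members 287 had the same sign on both arrays, and 237 passed 1.5-fold on both. By that size alone, 343 of 12516 spots passed, 2.74%.

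**Figure D2:**
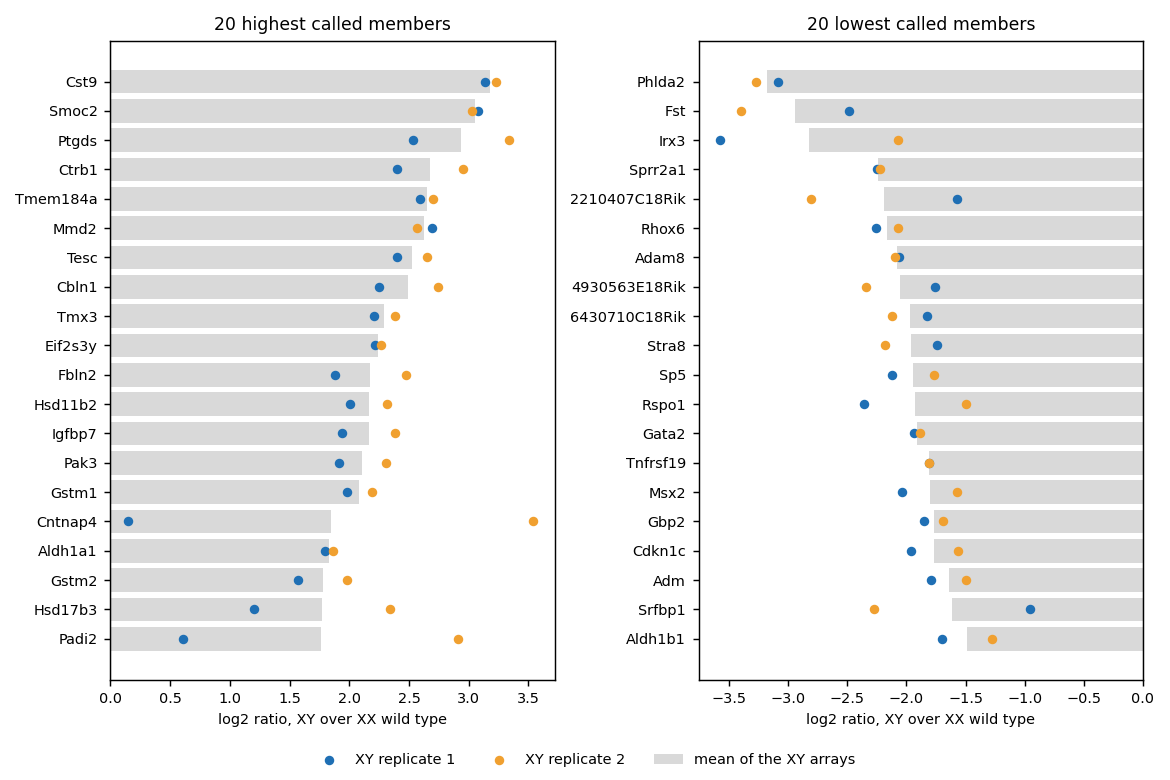
The 20 highest and 20 lowest called members with the same sign on both arrays; points are the log2 ratios of XY over XX wild type on replicates 1 and 2 and grey bars their mean. Cst9 and Phlda2 head the lists with close replicates, while Cntnap4 and Padi2 owe their place to replicate 2.

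Genes of the early Sertoli cell stood among the highest in XY. Of 24 measured genes on this list 9 were called higher and 1 lower, against 1.58% and 1.41% of all tested genes. Above 0 on both arrays were 17, against 22.3% of all member genes. The list median was 0.65 (0.39 on replicate 1 and 0.74 on replicate 2), against 0.00 over all member genes. In a whole gonad, more cells of a type and more RNA per cell cannot be told apart.

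Cst9, for a secreted cystatin made by fetal Sertoli cells, read 3.13 and 3.23 on replicates 1 and 2, and rose 9.07-fold (standard error 0.24 on the log2 scale, limma adjusted p = 0.0199). Ptgds, the prostaglandin D synthase, read 2.53 and 3.34 and rose 7.65-fold (standard error 0.13, limma adjusted p = 0.0129). Both arrays were high for both genes. The promoters of Cst9 and Ptgds are shown because these are the 2 highest Sertoli genes and each holds ACAAAG, a core bound by SOX proteins; capitals mark it on either strand. Sequences are from RefSeq on GRCm38.p6, 250 bases before to 50 after the start, 5′ to 3′.
Cst9, chr2:148834897-148835196, plus strand: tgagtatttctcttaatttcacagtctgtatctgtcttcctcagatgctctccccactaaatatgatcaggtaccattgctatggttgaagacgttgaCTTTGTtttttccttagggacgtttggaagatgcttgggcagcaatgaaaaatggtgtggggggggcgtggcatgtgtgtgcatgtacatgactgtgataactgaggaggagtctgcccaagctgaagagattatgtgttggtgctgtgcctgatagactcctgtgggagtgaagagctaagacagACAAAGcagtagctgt
Ptgds, chr2:25469700-25469999, minus strand: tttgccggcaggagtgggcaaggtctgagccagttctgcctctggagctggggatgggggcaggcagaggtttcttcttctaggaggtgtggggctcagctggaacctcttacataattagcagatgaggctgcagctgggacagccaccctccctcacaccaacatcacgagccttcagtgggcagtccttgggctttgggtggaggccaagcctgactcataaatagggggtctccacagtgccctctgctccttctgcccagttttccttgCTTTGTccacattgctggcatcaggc
The Cst9 window holds 2 matches and the Ptgds window 1. ACAAAG is a common string: it occurs in 18.7% of all 32851 promoters of that length, in 18 of 110 genes called higher with a promoter in the table (16.4%), in 21 of 110 called lower (19.1%) and in 1392 of 7926 member genes (17.6%). Here and below, the share of all promoters counts windows, while the other shares count genes with a match at any start. A match is a description of letters and shows no binding.

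Tmem184a, a transmembrane protein gene, read 2.60 and 2.70, Mmd2 read 2.69 and 2.57, and Tesc, for the calcium-binding tescalcin, read 2.40 and 2.65. These 3 rose by close amounts on both arrays. Sox9, the transcription factor that drives Sertoli fate, rose less, at 0.99 and 0.88 (mean 0.93 ± 0.08, SD, n = 2). Clu, for the secreted chaperone clusterin, rose at 1.29 and 1.57. Aldh1a1, a retinaldehyde dehydrogenase, rose at 1.80 and 1.87. Fgf9, the signal that sustains Sox9, was also called, yet its arrays read -0.08 and 1.80 and so do not share a sign.

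Other defining Sertoli genes did not pass. Amh, the hormone that removes the Müllerian duct, read 0.98 and 0.24 (limma adjusted p = 0.0638). Sostdc1, a secreted BMP and Wnt antagonist, read 2.21 and 2.28 and narrowly missed the cut (limma adjusted p = 0.0507). Dhh, the hedgehog ligand of Sertoli cells, read -0.02 and 0.03, and Dmrt1 read 0.41 and 0.19 (limma adjusted p = 0.990 and 0.465). Sry was blank on both arrays. Nr0b1, an X-linked orphan nuclear receptor also expressed in XX gonads, was the 1 gene of the list that fell, at -0.85 and -0.56.

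Outside the lists, several of the highest members encode secreted proteins or enzymes. Ctrb1, for chymotrypsinogen B, read 2.40 and 2.95, and Cbln1, for the secreted cerebellin 1, read 2.25 and 2.74. Hsd11b2, which inactivates glucocorticoids, read 2.01 and 2.32, and Igfbp7, an IGF-binding protein, read 1.94 and 2.38. All 4 rose on both arrays. Glutathione S-transferases of the mu class, looked up after their values were seen, moved in part: Gstm1, Gstm2 and Gstm3 rose, at means of 2.08, 1.78 and 1.59, while Gstm4, Gstm5 and Gstm7 were not called. Close paralogs may share signal on an oligonucleotide array. Cntnap4, a neurexin-family adhesion gene, was called with 0.15 and 3.54, and Padi2, a peptidylarginine deiminase, with 0.61 and 2.91. The dye term carries every call, and for these 2 genes the gap between the arrays is also larger than the mean.

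Feedback inhibitors and ETS factors that respond to FGF and ERK signalling were looked up after their values were seen, as whole families. Of 9 measured Spry, Spred, Dusp4 to Dusp7 and Etv1, Etv4 and Etv5 genes, 4 rose and 0 fell. Over all tested genes 1.58% rose and 1.41% fell. Etv1, an ETS transcription factor, read 1.14 and 1.11, and Spry1, an inhibitor of receptor tyrosine kinase signalling, read 1.02 and 0.91. Dusp4 and Dusp6, which dephosphorylate MAP kinases, read 0.79 and 0.72, and 0.40 and 1.09. Spry4 read 0.53 and -0.39 and was not called.

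Interstitial genes were higher in XY, with the hedgehog response among them. Of 18 measured interstitium and Leydig cell genes 17 were tested. Among these 6 were called higher and 0 lower, against 1.58% and 1.41% of all tested genes. Above 0 on both arrays were 12, against 22.3% of all member genes. The median was 0.38 (0.54 and 0.36 on replicates 1 and 2). Gli1, a transcription factor both induced by and acting in the hedgehog pathway, read 1.44 and 1.40, and Ptch1, the hedgehog receptor and target, read 1.27 and 1.02. Both rose while their ligand Dhh was near 0. Pdgfra, the PDGF receptor of interstitial progenitors, rose at 0.72 and 0.92, Tcf21 at 1.08 and 1.42 and Hic1 at 1.09 and 1.58. Hsd17b3, which reduces androstenedione to testosterone, rose at 1.20 and 2.34. It was counted on this list by choice, and which cells held its RNA was not tested. Of the steroid synthesis genes of differentiated Leydig cells, Cyp11a1 read 0.05 and -0.16 and Cyp17a1 -1.17 and 0.15, and neither was called. Star, at -0.76 and 0.14, was blank on a Wnt4 null array and not tested.

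Matrix genes were higher too. Of 46 measured basement membrane and interstitial matrix genes 45 were tested. Among these 10 were called higher and 0 lower, against 1.58% and 1.41% of all tested genes. Above 0 on both arrays were 25, against 22.3% of all member genes. The median was 0.27 (0.24 and 0.39 on replicates 1 and 2). Smoc2, a secreted calcium-binding matrix protein, read 3.07 and 3.03 and rose 8.28-fold (standard error 0.26 on the log2 scale, limma adjusted p = 0.0221). Fbln2, for fibulin 2, rose at 1.88 and 2.48. Among collagens, Col9a2 rose at 1.23 and 1.71, Col18a1 at 1.21 and 1.63, Col4a1 at 1.05 and 0.92 and Col4a2 at 0.97 and 0.59. The type IV chains were uneven, since Col4a4, Col4a5 and Col4a6 were not called. Sparc, Emilin1, Bgn and 1 of the Vcan spots also rose, while the other Vcan spot read 0.02 and -0.01. Lamb1, Lamc1 and Lama1, chains of laminin 1, were not called.

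Several ovary supporting cell and Wnt response genes were among the lowest members in XY. Of 22 measured genes 21 were tested, and 8 were called lower and 0 higher, against 1.41% and 1.58% of all tested genes. Below 0 on both arrays were 13, against 21.9% of all member genes. The list median was -0.37 (-0.54 and -0.42 on replicates 1 and 2). Fst, for the activin-binding follistatin, read -2.49 and -3.40 and was 7.69-fold lower (standard error 0.31 on the log2 scale, limma adjusted p = 0.0304). Irx3, an Iroquois homeobox gene, read -3.58 and -2.07 and was 7.08-fold lower (standard error 0.27, limma adjusted p = 0.0258). Both genes were low on both arrays.

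Along the Wnt pathway, the ligand and its potentiator fell, as did some but not all Wnt response genes. Wnt4 read -1.08 and -1.73, and Rspo1, which strengthens Wnt signalling at the receptor, read -2.36 and -1.50. In XX Wnt4 null over XX wild type the same Wnt4 spot read only -0.08 and -0.18. That spot thus did not register the loss of Wnt4, and the reason was not tested. Sp5, a transcription factor gene induced by beta-catenin, read -2.13 and -1.77, and Msx2, a homeobox gene, read -2.03 and -1.57. Tnfrsf19, a TNF receptor family member that is not on the list, read -1.81 and -1.81. Kitl, the ligand of the Kit receptor of germ cells, fell at -1.35 and -1.38, and Gata2, a zinc finger transcription factor gene, at -1.94 and -1.88. Gata2 was counted on this list by choice, and which cells held its RNA was not tested. Lgr5, Nkd1, Notum, Dkk1, Runx1 and Ctnnb1 were not called. Dkk1 read 0.20 and 0.70, Notum -0.0045 and -0.61, and Runx1 -1.30 and 0.80, on both sides of 0. Axin2 had a value only on replicate 2, at -0.0049. Bmp2, at -0.55 and 0.69, was blank on a Wnt4 null array and not tested.

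The promoters of Sp5 and Tnfrsf19 are shown because both genes fell and each holds ATCAAAG, a core bound by TCF and LEF, the partners of beta-catenin; capitals mark it on either strand. Tnfrsf19 has 2 starts in the RefSeq table, and the window with the match is given.
Sp5, chr2:70474673-70474972, plus strand: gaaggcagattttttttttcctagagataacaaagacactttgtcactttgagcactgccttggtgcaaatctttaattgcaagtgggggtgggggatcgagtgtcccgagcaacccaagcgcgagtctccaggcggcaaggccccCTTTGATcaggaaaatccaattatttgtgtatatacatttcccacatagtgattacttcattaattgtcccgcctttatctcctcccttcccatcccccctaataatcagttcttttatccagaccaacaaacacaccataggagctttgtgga
Tnfrsf19, chr14:61037938-61038237, minus strand: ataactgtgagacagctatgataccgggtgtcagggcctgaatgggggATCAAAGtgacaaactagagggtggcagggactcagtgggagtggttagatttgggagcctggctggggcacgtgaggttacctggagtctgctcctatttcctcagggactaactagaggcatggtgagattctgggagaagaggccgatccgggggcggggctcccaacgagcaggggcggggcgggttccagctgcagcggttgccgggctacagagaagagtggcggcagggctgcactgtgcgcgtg
ATCAAAG occurs in 3.73% of all 32851 promoters, in 4 of 110 genes called lower (3.64%), in 2 of 110 called higher (1.82%) and in 254 of 7926 member genes (3.20%). The share among genes called lower is close to that of member genes, which is counted in the same way. AAGGTCA, a core bound by SF-1, occurs in 5 of 110 genes called lower and 3 of 110 called higher. It occurs in 311 of 7926 member genes (3.92%) and in 4.72% of all promoters.

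Germ cell genes were lower in XY. Of 29 measured genes 8 were called lower and 1 higher, against 1.41% and 1.58% of all tested genes. Below 0 on both arrays were 17, against 21.9% of all member genes. The median was -0.43 (-0.43 and -0.37 on replicates 1 and 2). Genes of meiotic entry fell: Stra8, the retinoic acid response gene required for it, read -1.74 and -2.18 and was 3.89-fold lower (standard error 0.10 on the log2 scale, limma adjusted p = 0.0129). Of the synaptonemal complex, Syce1 averaged -0.88, and Sycp3 read -0.40 and -1.87, so its size rests on replicate 2. Hormad1, of the meiotic chromosome axis, read -0.65 and -1.35. The germ cell RNA-binding proteins Lin28a and Dazl fell at means of -1.14 and -0.78, and Tfap2c, a transcription factor gene of germ cell specification, at -1.35. Rhox6, an X-linked homeobox gene, read -2.26 and -2.07.

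The other measured germ cell genes were not called, apart from Lefty1, and did not all lie on one side. Ddx4 read -0.69 and -0.32, Pou5f1 -0.58 and -0.46, Kit -0.43 and -0.43 and Rec8, a meiotic cohesin, -0.69 and -0.51. Utf1 read 0.07 and 0.28, Nodal 0.24 and 0.57, while Ifitm3 and Zfp42 averaged 0.04 and -0.02. Lefty1, a Nodal antagonist, was called higher with -0.03 and 1.87, which do not share a sign. Nanog read -2.75 and 3.44, a swap with the dye, and has no usable value here. Smc1b and Tex15, meiotic genes named after their values were seen, fell at means of -1.06 and -0.87.

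Several of the lowest members lie outside these lists. Phlda2, an imprinted gene that restrains placental growth, read -3.09 and -3.27 and was 9.06-fold lower (standard error 0.13 on the log2 scale, limma adjusted p = 0.0129). Cdkn1c, another imprinted gene and an inhibitor of cyclin-dependent kinases, read -1.96 and -1.56. Adam8, a membrane metalloprotease, read -2.06 and -2.10. These 3 genes fell on both arrays. Sprr2a1, a small proline-rich protein of epithelia, read -2.25 and -2.22, and among the 5 Sprr2 genes measured Sprr2d also fell. Gbp2 and Gbp2b, interferon-induced GTPases, averaged -1.77 and -1.30, while Gbp3 and Gbp4 were not called. Aldh1b1 fell at -1.70 and -1.28, while Aldh1a1 of the same family rose. Id1, Id3 and Id4, inhibitors of basic helix-loop-helix factors and responsive to BMP, averaged -0.86, -0.69 and -0.71; Id3 read -0.41 and -0.97, and Id2 was not called. The Sprr2, Gbp, Aldh1 and Id families were looked up after their values were seen.

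**Figure D3:**
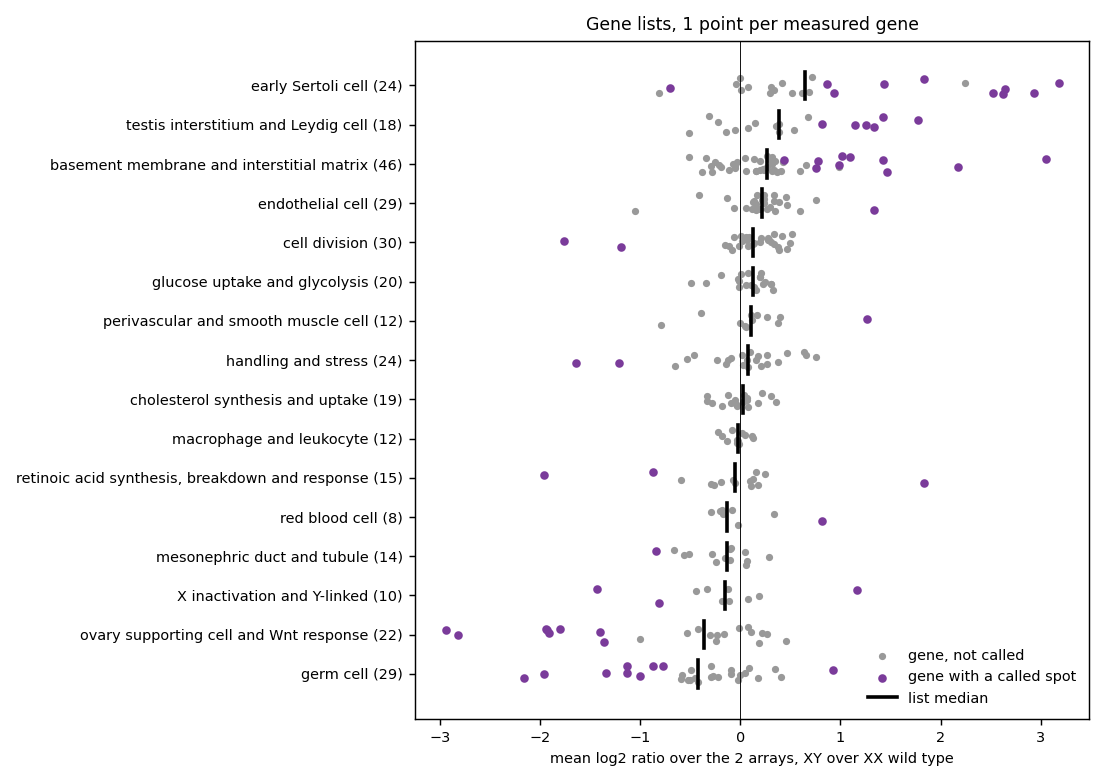
Mean log2 ratio of XY over XX wild type for each measured gene of 16 lists, ordered by median; purple points are genes with a called spot, black bars list medians, and the number measured follows each name. Medians run from -0.43 for germ cells to 0.65 for early Sertoli cells.

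Endothelial genes, which bear on the vessels that form in the early testis, were shifted slightly upward. Of 29 measured genes 21 were above 0 on both arrays and 3 below, against 22.3% and 21.9% of all member genes. The median was 0.21, and 1 of 27 tested was called, against 1.58% higher and 1.41% lower of all tested genes. That gene was Thbd, for thrombomodulin, at 1.47 and 1.19. Defining markers of the lineage were not called: Kdr read 0.19 and -0.07, Tie1 0.14 and 0.14, and Pecam1 -0.52 and -0.30. Hhex, a homeobox gene, read -0.94 and -1.16 and was blank on a Wnt4 null array, so the dye term fit could not test it.

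Lists of other cell types that a dissected gonad can hold had medians from -0.13 to 0.11. Over all tested genes 1.58% were called higher and 1.41% lower. In lists this small, 0 or 1 called gene cannot be told from those shares. Of 12 perivascular genes 1 was called, Smtn, for smoothelin, at 1.07 and 1.46, and the median was 0.11. Of 12 macrophage genes 0 were called, and their median was -0.03. Of 8 red blood cell genes 1 was called, Nfe2, at 1.16 and 0.48, with Hbb-y at -0.25 and -0.17. Of 14 mesonephric duct and tubule genes, markers of the tissue cut away in dissection, 0 were above 0 on both arrays and 7 below. Over all member genes the shares were 22.3% and 21.9%, and the median of this list was -0.13. Krt18, a keratin, was the 1 called, at -0.90 and -0.78. The mesonephric genes thus lay on the same side as the ovary and germ cell genes, and their part in those results was not tested.

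The cholesterol and glucose lists held 0 called genes, and the retinoic acid, cell division and stress lists held some. Over all tested genes 1.58% were called higher and 1.41% lower, so 0 calls in a list of 19 or 20 says little. Cholesterol synthesis had 0 of 19 genes called and a median of 0.02, and glucose uptake and glycolysis had 0 of 20 and 0.12. Of 15 retinoic acid genes Aldh1a1 rose, and Stra8 and Crabp2, a retinoic acid binding protein, fell. Aldh1a2, the main synthetic enzyme of the adjoining mesonephros, read 0.14 and 0.18. Of 30 cell division genes 18 were above 0 on both arrays and 3 below, against 22.3% and 21.9% of all member genes. Their median was 0.13, and the only 2 called were the inhibitors Cdkn1c and Cdkn1a, both lower. Of 24 handling and stress genes, Adm, the vasodilator peptide adrenomedullin, and Asns, asparagine synthetase, fell.

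On the sex chromosomes, XY gonads held more Eif2s3y at one spot, 2.22 and 2.26, while a second Eif2s3y spot read 0.64 and -0.45. The first spot helped to set the direction, and the other Y-linked genes measured did not follow it: of 8 in all, 2 were above 0 on both arrays and 2 below, with a median of 0.01. Zfy2 read 0.10 and 0.05, and Uba1y 0.20 and -0.45. Xist read -1.67 and -1.20. Of 326 X-linked genes measured 321 were tested. Among these 16 were called lower and 9 higher, against 122 and 144 of 9365 autosomal genes tested. Of the X-linked genes measured, 32.2% were below 0 on both arrays and 20.6% above, against 21.5% and 22.5% of 9550 autosomal genes. The X-linked median was -0.04. Kdm6a, a histone demethylase gene that escapes X inactivation, fell at -0.66 and -0.98, while Ddx3x, Usp9x, Eif2s3x and Kdm5c were not called. The highest X-linked gene was Pak3, a kinase, at 1.91 and 2.31.

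Members blank on a Wnt4 null array were left out of the dye term fit, and 215 were so. Among them 8 passed 1.5-fold upward on both XY arrays and 4 downward, against 160 and 143 of all 10657 members. Gjb2, the gap junction protein connexin 26, read 1.54 and 2.39, and Mageb5 read 1.75 and 1.62. Col9a1, a partner chain of Col9a2, read 0.83 and 1.13. Slx1b read -1.73 and -2.34 and Abcg8, a sterol transporter, -2.85 and -0.81. None of these was called from the XY arrays alone, where limma gave adjusted p = 0.0969 for Mageb5, 0.155 for Gjb2 and 0.0983 for Slx1b.

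Of 539 genes with 2 to 9 spots, 17 had a spot past 1.5-fold on both arrays and 0 had more than 1 such spot, so no large difference was seen at separate spots of the same gene. In 10 of the 17 the mean of the 2 arrays had the same sign at every spot. Some of these spots changed sign between the arrays, such as the second Eif2s3y spot, at 0.64 and -0.45. The largest swapped difference was Troap, a spindle protein gene, at 6.64 and -0.66, with the first value at the limit of that array's range. Ndrg2 read -0.69 and 3.80 and Agt, angiotensinogen, -1.19 and 2.39.

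The XX Wnt4 null arrays share the XX wild type reference, so values are given side by side. Genes picked as extremes against that reference can lie on the same side for this reason alone. The 40 named members were also called by a fit that held the null arrays as given here. That fit favours spots whose gap between the null arrays is like the gap between the XY arrays. Counts among these 40 and over all members are therefore not like for like, and the turned counts are no separate check. The direction of the null arrays is less settled than that of the XY arrays. Given as the null over XX wild type, they correlated at r = -0.46, and 112 of 10442 members passed 1.5-fold with matching signs, against 607 with null replicate 1 turned. Of the 20 highest members in XY, 4 passed 1.5-fold upward on both null arrays, against 0.584% of all members; with null replicate 1 turned 2 did. Cbln1 read 2.25 and 2.74 in XY and 2.41 and 2.65 in the null, and Igfbp7 read 1.94 and 2.38 in XY and 1.74 and 1.67 in the null. Tesc read 2.40 and 2.65 in XY and 0.43 and 0.31 in the null. Of the 20 lowest, 12 passed 1.5-fold downward on both null arrays, against 0.488% of all members; with null replicate 1 turned 0 did. Fst was among the 12, at -2.49 and -3.40 in XY and -3.02 and -2.21 in the null. Rspo1 read -2.36 and -1.50 in XY and -0.65 and 0.86 in the null. The limma test of XY minus Wnt4 null called 0 of 12264 spots, 0% (1098 at an unadjusted p under 0.05), so no gene is shown to differ between the comparisons. Over the 40 named members its adjusted p ran from 0.209 to 0.967.

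**Figure D4:**
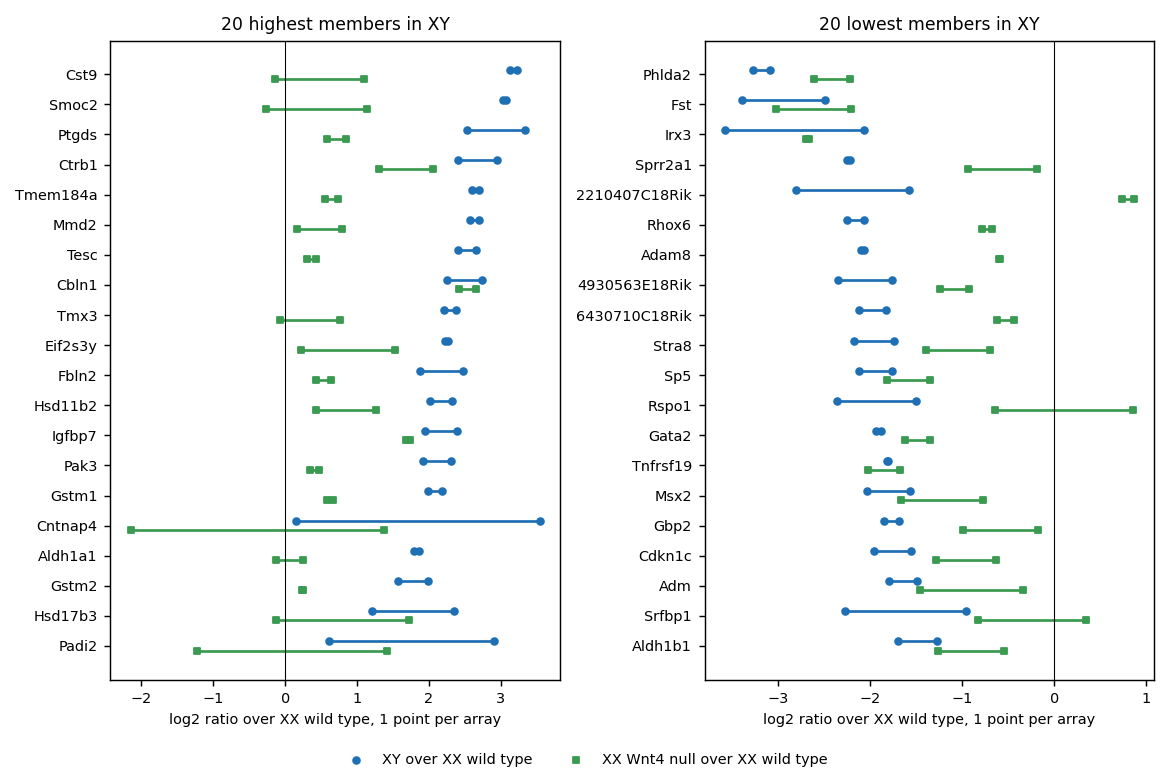
Log2 ratios over XX wild type for the 20 highest and 20 lowest members in XY, with 1 point per array and a line joining the 2 arrays; XY is blue and drawn above XX Wnt4 null in green. Cbln1 and Fst lie at like levels in both, while Tesc and Mmd2 lie apart.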

How the data were processed

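The authors deposited 1 log2 ratio of the dyes per spot and array; base 2 was read from the lowest value of XY replicate 1, which is log2 of 0.01. Background correction, normalization and scale are not given in the sources used here. Deposited medians were -0.0019 and -0.0172 for XY replicates 1 and 2, and 0.0084 and -0.0388 for Wnt4 null replicates 1 and 2. XY replicate 1 was turned, and each array was centred on its median. Names came from the platform annotation, checked by Entrez identifier against RefSeq (13908 spots matched, 0 symbols changed); 14010 spots had 1 symbol, 13 several and 3641 none.

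Fits used limma 3.58.1 in R 4.3.3, two-sided, with Benjamini-Hochberg adjustment. The dye term fit took 12264 spots with 4 values and leaves 1 residual degree of freedom per spot; its variances borrow 3.42 prior degrees of freedom. It was tested on simulated data. With spot variances drawn from the fitted prior, most changed spots were recovered, and the share of false calls exceeded the nominal level in each simulation, at the worst by more than that level itself. With each spot's own residual spread taken as its true spread, which overstates how uneven the spots are, it made no calls. Calls therefore rest on the shared variance model as well as on the dye term.

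Named genes were the 20 highest and 20 lowest called members with 1 sign on both arrays, up to 8 each way among members blank on a Wnt4 null array, called or defining list genes, genes with several spots past 1.5-fold and the 5 largest swaps. Members and lists were chosen with earlier results of these data known. Genes outside this rule are named as chosen after their values were seen, as are X-linked examples. Spots of a gene were averaged for lists.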

Additional observations from a re-analysis of the deposited data

How the results depend on the processing

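The number of called spots moved strongly with the processing. With the dye term it was 330, and it became 618 (308 higher, 310 lower) with centring in printed blocks and 1078 (542 and 536) with arrays scaled to a common spread. It was 0 without the dye term, 0 with XY replicate 1 as deposited and 0 with Wnt4 null replicate 1 turned; leaving out an XY replicate gave 0 to 1. Block centring raised the XY arrays alone to 54 calls (31 higher, 23 lower) and XY minus Wnt4 null to 7 (6 and 1); scaling gave that difference 68 (46 and 22). Spots past the size limit numbered 123 (64 and 59) at 2-fold, and 1716 to 1853 on a single array. All 73 named results kept direction and call under block centring and scaling. All 73 lost the call without the dye term and from the XY arrays alone. Their direction could not change there or without either replicate, because the 73 were picked for 1 sign on both XY arrays. With spot numbering as deposited, list medians ran from -0.11 to 0.14, against -0.43 to 0.65. Of 16 list medians, 5 moved by more than the spread between the arrays without replicate 1 and 8 without replicate 2. With Wnt4 null replicate 1 turned, a setting chosen after seeing the data, 2 of the 20 highest and 0 of the 20 lowest members passed 1.5-fold the same way on both null arrays, in place of 4 and 12. Those members were called with that array unturned, so this setting is no separate check of them. The cause was not tested. Replicate numbers follow accession order and coincide with dye orientation in both comparisons, so the dye term is the same fit as a replicate block: 330 spots with that block and 0 without it. No intensities were analysed here, so signal over background is unknown.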

Other observations

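Spots without a gene symbol gave 1859 values on both XY arrays. Past 1.5-fold, 40 of them differed in the same direction on both arrays and 37 in opposite directions. With the dye term 38 of 1822 tested were called, against 2.69% of all tested spots. Some list genes had a value on only 1 XY array. Kdm5d, a Y-linked histone demethylase gene, read 1.49 on replicate 1. On replicate 2, Mov10l1, a germ cell RNA helicase gene, read 3.60, and Cenpa, a centromeric histone gene, read 2.86.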
